A study of Mus musculus with 8 samples.

Results

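CpG-sparse stretches of the mouse genome with low DNA methylation, away from protein-coding gene ends and set between methylated neighbours, were examined in liver. They were 6514 windows of 1 kb, taken from 1804505 windows that held at least 1 listed CpG position, of which 1609820 held the 6 positions needed for a test. A window was a member if it held 10 to 40 positions (each strand of a CpG is 1 position), had a mean level of 10 to 40% over all 8 libraries, lay between adjoining windows above 60%, and was more than 5 kb from every RefSeq protein-coding gene end. Chromosomes 1 to 4, chromosome 5 below 117.09 Mb and chromosomes 10 to 19 were searched. The level was thus chosen by the rule and is a description, while the difference between diets was not used by it.

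Whole-genome bisulfite sequencing, which reads unconverted cytosines as methylated, was done on liver DNA of wild-type male C57BL/6J mice, an inbred laboratory strain. The mice were 8 weeks old at purchase and then received a normal diet (ND) or a diet rich in fat, cholesterol and fructose for 28 weeks. A set of 4 libraries per group was deposited, the latter titled NASH (nonalcoholic steatohepatitis) and the former WT. Samples titled WT carry the treatment entry NASH and those titled NASH the entry WT; titles and column names were followed, and each direction below would be the opposite if the treatment entries were the right ones. The labels do not say whether each library is its own mouse, so the spread may be technical. Values are percent methylation without read counts, so the depth is unknown, and an exact 0 can stand for a position without reads. Values after ± are SDs over n = 4 libraries, and a difference is the NASH level less the ND level, in percentage points.

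In most mammalian DNA, CpGs outside CpG islands are methylated. Short CpG-poor stretches of intermediate or low methylation often form where transcription factors bind, and in liver many of these are distal enhancers used by hepatocytes, the main parenchymal cell. Factors such as HNF4A, FOXA and C/EBP proteins are known to occupy them. Neither chromatin marks nor factor binding were measured here, so the windows are called low windows, and a nearest gene names a place and not a target.

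Sequences were at hand for 300-base stretches around RefSeq transcript starts (250 bases before and 50 after), and 91 of these, from 84 genes, lay wholly in 83 low windows that stayed low when zeros were left out. They belonged to long noncoding RNAs in 77 cases and to protein-coding genes in 14. The median was 5 CpGs per stretch against 7 over all 32851 start sequences. The 3 noncoding starts printed below, from GRCm38.p6, had at least 4 CpGs and the smallest unadjusted limma p among those higher in NASH, and were chosen after their values were seen. They hold 9, 6 and 5 CpGs in the order printed, so Rptoros is above the median of all starts. Each CpG is in capitals:
Rptoros, chr11:119834316-119834615, minus strand: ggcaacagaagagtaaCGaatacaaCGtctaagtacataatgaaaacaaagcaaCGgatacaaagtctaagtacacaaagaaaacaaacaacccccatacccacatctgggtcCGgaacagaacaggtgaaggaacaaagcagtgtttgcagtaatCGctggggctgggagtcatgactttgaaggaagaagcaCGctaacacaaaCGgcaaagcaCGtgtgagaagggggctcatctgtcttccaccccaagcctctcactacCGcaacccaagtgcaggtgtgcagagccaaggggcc
Gm34056, chr1:136662196-136662495, minus strand: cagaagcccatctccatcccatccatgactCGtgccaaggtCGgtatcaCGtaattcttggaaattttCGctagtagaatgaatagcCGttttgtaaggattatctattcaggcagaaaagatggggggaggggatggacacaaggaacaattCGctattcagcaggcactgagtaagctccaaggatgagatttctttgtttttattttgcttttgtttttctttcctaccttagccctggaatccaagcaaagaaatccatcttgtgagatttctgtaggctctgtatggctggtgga
Gm42364, chr4:155228594-155228893, minus strand: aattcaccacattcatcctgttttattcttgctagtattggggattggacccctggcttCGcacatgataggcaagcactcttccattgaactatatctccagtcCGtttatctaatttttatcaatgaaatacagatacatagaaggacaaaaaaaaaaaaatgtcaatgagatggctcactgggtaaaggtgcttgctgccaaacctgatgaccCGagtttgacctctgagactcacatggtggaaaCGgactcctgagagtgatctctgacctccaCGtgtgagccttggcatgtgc

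The window of Rptoros, a noncoding start whose nearest protein-coding gene is Rptor (which encodes a subunit of the nutrient-sensing kinase complex mTORC1), was at 28.9, 28.6, 24.1 and 28.8% in ND and 52.9, 39.2, 47.7 and 48.7% in NASH. All 9 CpGs of its printed sequence had higher mean levels in NASH, from 28.2 to 52.5% against 15.5 to 33.5% in ND. The spread of single CpGs was wide, with SDs of 11.3 to 30.7 in NASH and 8.18 to 16.7 in ND. The window of Gm34056, whose nearest protein-coding gene is Zfp281 (a zinc finger transcription factor), averaged 19.6% ± 4.22 in ND and 35.4% ± 5.24 in NASH. Its 6 CpGs were likewise each higher in NASH on average.

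In Gm42364, near Ski (a corepressor of TGF-beta signalling), the window averaged 32.5% ± 4.16 in ND and 45.9% ± 2.63 in NASH, with no overlap of the libraries. Its CpGs differed in their means. The first in the printed sequence, at base 60 from the 5′ end, was at 23.6% ± 8.83 in ND and 58.0% ± 4.99 in NASH. The third, at base 217, was at 37.0% ± 19.5 and 30.6% ± 8.73, a difference inside the spread. None of these 3 windows passed the adjusted test (limma, adjusted p = 0.102, 0.132 and 0.137 in the order printed).

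A set of 4 motifs was searched on both strands of the 91 start sequences. The AP-1 letters TGANTCA were in 10.99% of them against 7.81% of all start sequences and 9.31% of all noncoding ones. The forkhead letters TGTTTAC were in 7.69% against 3.65 and 4.83%, the C/EBP letters TTGCNNAA in 16.5% against 10.8 and 11.95%, and the nuclear receptor half-site AGGTCA in 15.4% against 16.3 and 19.1%. Among the sequences printed, Gm42364 alone held one of the 4, AGGTCA. A match is a run of letters and not a binding site.

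Zeros divided the windows into 2 kinds, a split made after the data were seen. In 1231 windows (18.9%) the mean level was above 60% once every 0 was left out, with a median of 86.3%. There 59.6% of values were 0, and 25.8% of positions were 0 in all 8 libraries. In these windows the low level rests on zeros that may mark positions without reads, which goes against calling them low-methylated. The other 5283 windows (81.1%) stayed at 60% or lower without zeros, with a median of 42.6%. The split is not sharp, since 537 windows lay within 5 points of it.

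The positions of the 5283 windows ranged widely within each window. The lowest position was at a median of 4.97% and the highest at 79.4%, and positions below 50% spanned a median of 603 bases. Both strands of a CpG had nearly the same mean, 31.1 and 31.2%. In the windows that rest on zeros the strands differed more, at 34.6 and 28.3%.

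The tissue label was checked at gene ends. Ends of hepatocyte plasma protein genes averaged 43.6% in ND, and those of hepatocyte transcription factors 38.9%. Both were below the ends of markers of lymphocytes (65.2%), macrophages (66.1%), neutrophils (75.8%), endothelial cells (61.3%) and stellate cells and matrix (57.1%). Cholangiocyte marker ends (45.9%) were above both hepatocyte lists but nearer to them than the ends of those other cell types were. These averages include gene ends with levels under 10%, so they rank lists only roughly.

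Low windows had higher methylation in NASH. Over all 6514 the mean was 28.7, 28.4, 29.5 and 28.9% in the 4 ND libraries and 33.3, 33.2, 33.9 and 35.05% in the 4 NASH libraries, and every NASH library was above every ND library. The group means were 28.9% ± 0.436 and 33.9% ± 0.852, a mean difference of 4.98 points with a median of 4.20. Over all tested windows the mean difference was -0.53 and the median -0.63 points, with overlapping libraries. No p is given for a mean over windows chosen in this way.

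**Figure D1:**
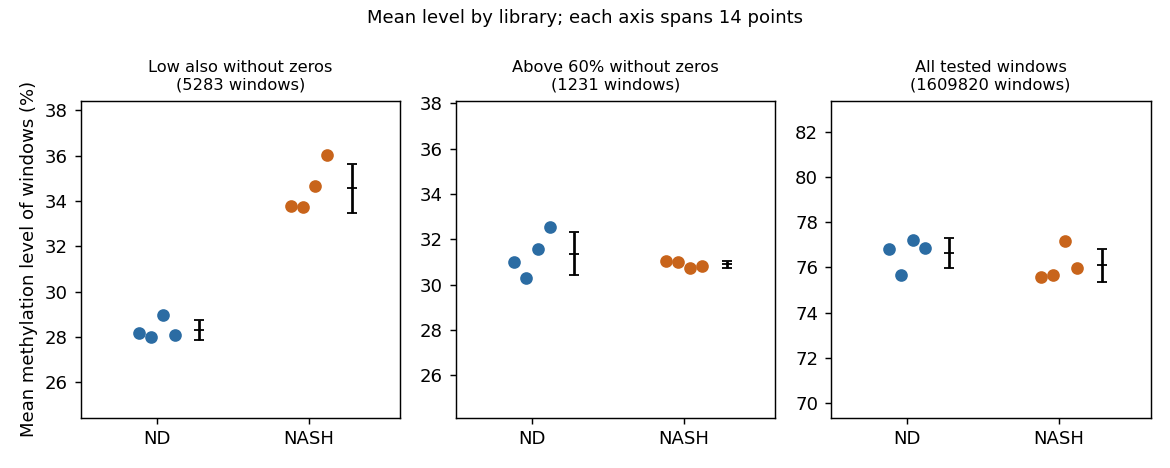
Mean methylation level in percent for each library (points), with the group mean and SD over 4 libraries beside them, for the 2 kinds of low window and for all tested windows; each axis spans the same number of points but starts at a different level. In windows low also without zeros the NASH libraries sit at 33.7 to 36.0% and the ND libraries at 28.0 to 29.0%, while the groups overlap in the other panels.

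The difference was seen in windows that were low also without zeros. These averaged 28.3% ± 0.447 in ND and 34.6% ± 1.07 in NASH, a mean difference of 6.25 points, and 4085 of them (77.3%) were higher in NASH. In the 1231 windows built on zeros the means were 31.4% ± 0.954 and 30.9% ± 0.141, a difference of -0.46 points.

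No single low window passed limma's test at an adjusted p under 0.05 in either direction, and the smallest adjusted p was 0.0593. Over all tested windows 3 passed as higher and 3 as lower, which is 0.000186% in each direction. At an unadjusted p under 0.05, 2227 low windows (34.2%) were higher in NASH against 4.33% of all tested windows, and 243 (3.73%) were lower against 6.58%. All 4 NASH libraries were above all 4 ND libraries in 1404 low windows (21.6%) against 2.78% of all windows, and below them in 117 (1.80%) against 3.71%. Of the 2227, 2176 were low also without zeros, which is 41.2% of that kind.

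**Figure D2:**
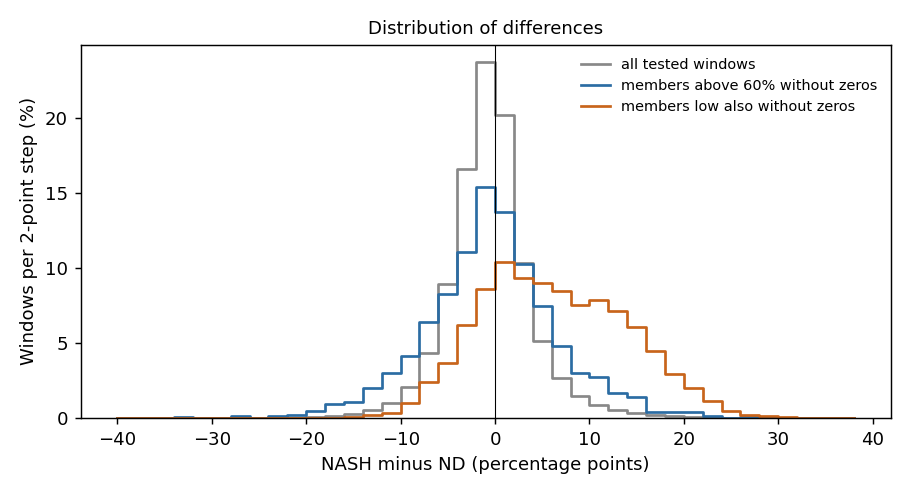
Share of windows in percent per 2-point step of the difference NASH minus ND in percentage points, for all tested windows and for the 2 kinds of low window. The curve of windows low also without zeros is broad and shifted to the right (median 5.70), while the curve of those above 60% without zeros is centred near 0 (median -0.43).

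The share of zeros moved with the result. In windows low also without zeros, 30.3 to 32.2% of positions were 0 in the ND libraries and 21.9 to 25.3% in the NASH libraries. The mean of the values above 0 was 40.3 to 42.0% in ND and 43.1 to 45.4% in NASH, so the groups were apart in that measure too. With every zero left out, the mean difference over the low windows was 2.63 points. Of the 6087 that could still be tested, 1318 were higher and 285 lower at an unadjusted limma p under 0.05. Of all 1569143 windows tested without zeros, 50549 were higher and 115343 lower. A 0 that is a measured unmethylated position and a 0 without reads cannot be told apart in the table.

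Gene ends of cell type markers are given as counts in each direction, to be read beside 41.5% of all tested windows that were higher in NASH. That share covers windows of all levels, and the direction went with the level. Over all tested windows the median difference was 2.74 points at 40 to 45%, -0.37 at 65 to 70% and -0.88 at 75 to 80%. The lists differ in level and were not matched for it. Ends of plasma protein genes were at 42.7 to 45.1% in ND and 51.3 to 55.7% in NASH, with 44 of 49 ends higher in NASH. Ends of hepatocyte transcription factors were higher in 20 of 28 cases, at 38.3 to 39.7% in ND and 41.4 to 42.4% in NASH. Neutrophil marker ends were lower in 20 of 24 cases (75.1 to 76.4% in ND, 71.0 to 72.8% in NASH), macrophage and Kupffer cell marker ends in 19 of 28 (65.1 to 66.9% and 63.8 to 64.7%), lymphocyte marker ends in 21 of 29 (63.6 to 66.3% and 61.2 to 63.9%), endothelial marker ends in 23 of 30 (59.1 to 62.7% and 57.5 to 60.7%) and stellate cell marker ends in 23 of 37 (56.1 to 58.1% and 53.8 to 56.8%). Cholangiocyte marker ends were higher in 13 of 20 cases (44.6 to 47.4% and 45.6 to 47.6%). In whole liver, fewer cells of a type and a higher level in each such cell cannot be told apart, and the part of these values in the difference of the low windows was not tested.

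The profile over the 5283 windows gives the difference by distance from the centre. The rule sets low windows between methylated ones, so the step in level at the window edge comes from the choice of members. In the 100 bases to the right of the centre the level was 22.9% in ND (libraries 22.7 to 23.4%) and 29.0% in NASH (28.0 to 30.7%). In the 100-base steps inside the window the difference was 4.69 to 6.66 points. It was 2.02 and 1.67 points in the first steps outside, and between -0.72 and -0.22 points in the steps from 900 to 1200 bases away. Levels there were 81.1 to 83.3%.

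**Figure D3:**
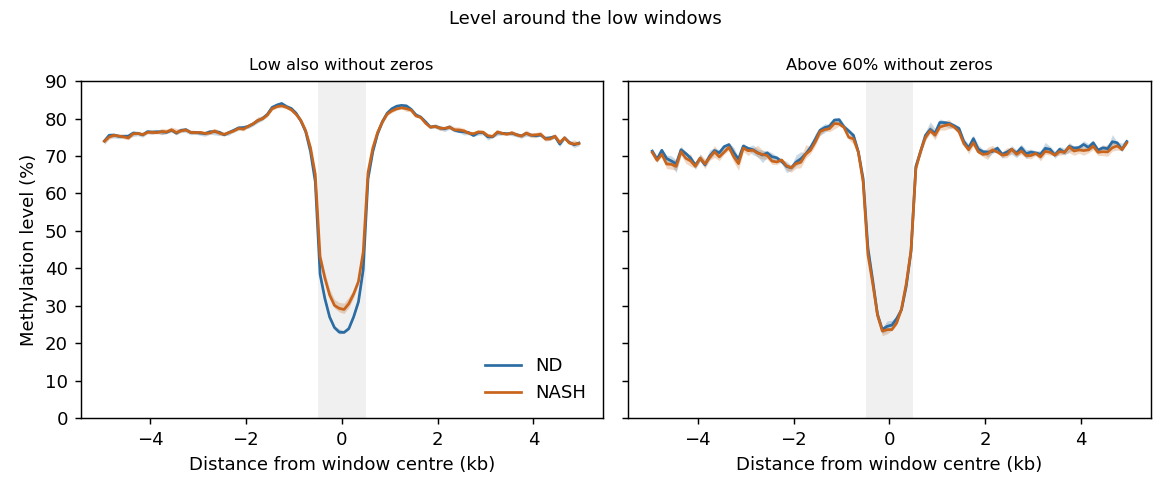
Mean methylation level in percent (lines) with the range over 4 libraries (bands) by distance in kb from the centre of the window, in 100-base steps, for the 2 kinds of low window; the grey band marks the 1 kb window. NASH lies above ND at the centre in the left panel (29.0 against 22.9%), and the lines nearly coincide in the right panel and in the flanks.

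Low windows lay at a median of 36.7 kb from the nearest protein-coding gene end, and at most 2124 kb. They had 3725 different nearest genes, of which 2249 had 1 low window and 169 had 5 or more. Inside a protein-coding gene lay 46.4% of the windows low also without zeros and 25.2% of those built on zeros. Low windows with a RefSeq transcript start of any kind were 1.98% of all, against 0.554% of distal windows of the same position count above 60%. An end of a long noncoding RNA gene was in 2.43 against 0.998%.

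Place and level went with the size of the difference among the 5283. Windows inside genes were at 28.0% in ND and 35.5% in NASH, and windows between genes at 28.6 and 33.7%, mean differences of 7.56 and 5.12 points. An unadjusted p under 0.05 with higher NASH was found for 47.6 and 35.7% of them. By distance to the gene end, mean differences were alike, at 6.05 to 6.37 points in 5 classes from 5 to 10 kb to over 100 kb.

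The mean difference was 3.05 points in windows at 10 to 20%, 5.54 at 20 to 30% and 6.94 at 30 to 40%. It was 7.26 points in windows with 10 to 15 positions and 4.25 in those with 31 to 40. It was positive on each of the 15 chromosomes, from 5.48 points on chromosome 11 to 7.28 on chromosome 16.

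Low windows near gene ends had a similar difference. The 1273 windows that met the rule but lay within 5 kb of a gene end had a mean difference of 4.58 points, and 5.51 points in the 1061 that were low also without zeros. The 29559 windows of the same level and position count whose adjoining windows were not both above 60% had 2.64 points, and 6.03 points in the 14646 low also without zeros. Of those 1061 and 14646, 37.0 and 42.0% were higher and 3.86 and 4.07% lower at an unadjusted limma p under 0.05. Among the 5283 low windows of that kind it was 41.2 and 3.39%. All NASH libraries were above all ND libraries in 22.8% of the 1061, 26.5% of the 14646 and 26.3% of the 5283. Distal windows above 60% with as many positions (924010) went the other way, at 82.9% ± 0.654 in ND and 82.1% ± 0.750 in NASH. The difference between low windows and these other low windows was not tested.

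Single windows with the largest differences are described next. Since none was called, the 12 with the largest difference in each direction were taken among those with an unadjusted p under 0.05 and groups that do not overlap, a choice made after the values were seen. The 12 higher windows differed by 28.1 to 36.2 points and were all low also without zeros, and 6 lay inside a gene. Of the 12 lower windows 6 were built on zeros, and none lay inside a gene.

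The largest difference was in Sh3pxd2a, which encodes a scaffold protein of podosomes, at chr19:47369000-47369999. The 14 positions averaged 12.7, 27.7, 15.7 and 12.7% in ND and 48.3, 60.7, 45.0 and 59.6% in NASH, a difference of 36.2 ± 4.63 points (SE, limma, adjusted p = 0.0819). Every NASH library was more than 17 points above the highest ND library. A window inside Scp2, which encodes a sterol carrier protein and peroxisomal thiolase, at chr4:108126000-108126999, was at 20.01, 9.90, 11.8 and 24.5% in ND and 54.8, 43.0, 40.3 and 43.2% in NASH.

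A window inside Stat5b, the transcription factor that relays growth hormone signals in hepatocytes, at chr11:100791000-100791999, was at 7.95, 24.3, 15.9 and 6.14% in ND and 29.8, 53.6, 40.02 and 52.1% in NASH. Its difference was 30.3 ± 5.86 points (SE, limma, adjusted p = 0.139). The groups did not overlap, but the NASH libraries were spread widely. Others near the top were Hs3st3b1 (a heparan sulfate sulfotransferase, 109 kb away, 35.1 points) and Csnk1g3 (a casein kinase, 169 kb, 30.9 points). Cdh17 (a cadherin, 36.1 kb, 30.8 points), Rpl11 (a ribosomal protein, 41.6 kb, 29.5 points) and Lacc1 (221 kb, 28.6 points) were among them too. So were Tsc22d2 (113 kb, 28.2 points), Ergic1 (28.3 points) and Babam2 (28.2 points), the last pair inside the gene.

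The steadiest differences, by the smallest p, were smaller than that of Sh3pxd2a, and the first of them is also among the 12 largest. Xxylt1, which encodes a xylosyltransferase that extends sugars on Notch receptors, held a window at chr16:30998000-30998999 with 16.1, 20.6, 15.2 and 21.1% in ND and 44.3, 48.8, 44.4 and 47.9% in NASH (28.1 ± 2.01 points, SE, limma, adjusted p = 0.0593). Gramd1c, a cholesterol transfer protein of the endoplasmic reticulum, held one at chr16:43999000-43999999 with 21.6, 21.02, 21.3 and 21.4% in ND and 39.99, 43.1, 38.9 and 45.3% in NASH. In both, the ND libraries lay within 6 points of each other. The third, 35.4 kb from the bone matrix gene Mepe, at chr5:104374000-104374999, was at 13.9 to 17.3% in ND and 28.8 to 33.5% in NASH.

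Among windows lower in NASH, one 38.4 kb from Pabpc1 (cytoplasmic poly(A)-binding protein) at chr15:36648000-36648999 was at 45.1, 47.4, 48.4 and 47.3% in ND and 27.8, 24.2, 24.8 and 33.1% in NASH (-19.6 ± 2.32 points, SE, limma, adjusted p = 0.0736). One 6.65 kb from Tns3 (tensin, a focal adhesion protein), at chr11:8424000-8424999, was at 17.4, 17.03, 21.9 and 21.1% in ND and 9.29, 8.81, 9.73 and 9.44% in NASH. One inside Arhgef3, a guanine nucleotide exchange factor, at chr14:27123000-27123999, was at 26.8, 22.0, 27.0 and 21.5% in ND and 9.54, 14.1, 12.9 and 10.9% in NASH. The groups did not overlap in any of these 3, and all were low also without zeros.

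The largest lower difference, near Pced1b (-32.5 points), rests on zeros, as do those near Prkcq, 4930596D02Rik, Rnaset2a, Pabpc4l and Cenpc1. The rest of the lower 12 lay near Slc45a1 (-18.5 points), Pebp4 (-16.1 points), Prss22 (a serine protease; -15.9 points), S100a10 (the partner of annexin A2; -15.6 points) and Zfp36l1 (an mRNA decay factor; -15.1 points). Windows low also without zeros beyond these 12, in order of size, lay inside Mctp1 (-15.1 points), inside Sgms2 (a sphingomyelin synthase; -14.1 points) and near Pik3r1 (-13.7 points), with Id3 (-12.9 points) further down. Near Id3, an inhibitor of helix-loop-helix factors, a window 19.8 kb away was at 41.3 to 44.9% in ND and 24.96 to 32.9% in NASH. Near Pik3r1, a regulatory subunit of the insulin-responsive PI3 kinase, one 61.8 kb away was at 35.4 to 45.1% and 23.4 to 31.5%.

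**Figure D4:**
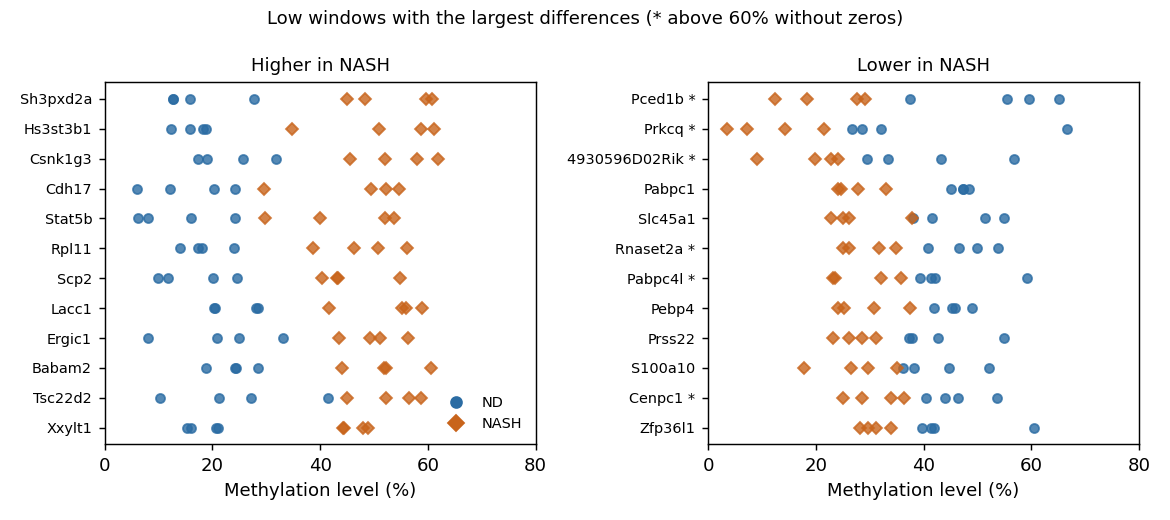
Methylation level in percent of each library (circles ND, diamonds NASH) in the 12 low windows with the largest difference in each direction, by nearest gene; an asterisk marks windows above 60% without zeros. Groups do not overlap in any, as the choice required, and the asterisks (6) are all on the lower side.

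Low windows were then taken by the gene nearest to them, for 19 lists of which 417 genes matched the annotation and 312 were on the chromosomes used. Because no low window was called, counts are at an unadjusted limma p under 0.05. They are to be read beside 34.2% higher, 3.73% lower and a median of 4.20 points over all low windows. Several lists hold few or no windows built on zeros. Over windows low also without zeros the values were 41.2% higher, 3.39% lower and a median of 5.70 points. Among 36 low windows nearest to hepatocyte transcription factor genes (11 of 14 genes) the median was 9.32 points, with 21 higher and 0 lower. The windows described for this list and for the lists below were picked for the smallest unadjusted limma p in their list. They need not be typical of it, while the medians and counts cover all low windows of a list. Onecut2, a liver homeobox factor, had a low window 14.03 kb away at 19.1 to 21.7% in ND and 32.8 to 34.3% in NASH. Bcl6, a repressor with a role in sex-biased liver genes, had one 80.1 kb away at 15.5 to 24.6% and 33.9 to 52.6%.

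Plasma protein genes had 8 low windows with 4 higher and 0 lower. One 20.9 kb from Alb (albumin), at chr5:90439000-90439999, was at 30.9, 24.4, 25.8 and 25.3% in ND and 36.4, 44.7, 47.0 and 51.0% in NASH, and one inside Cp (ceruloplasmin) at 25.03% ± 4.13 and 46.4% ± 6.07. Nuclear receptor genes had 22 with a median of 8.65 points, 11 higher and 0 lower. Esrrg, an estrogen-related receptor, had one at 17.5 to 20.2% and 31.8 to 39.1%, and Nr3c1, the glucocorticoid receptor, one 73.6 kb away at 18.9 to 29.4% and 32.4 to 42.2%.

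Cholesterol synthesis and uptake genes had 7 low windows with a median of 13.7 points, 6 higher and 0 lower. One in Hmgcs1, the cytosolic HMG-CoA synthase of cholesterol synthesis, was at 24.9, 25.7, 20.99 and 30.6% in ND and 39.3, 46.6, 56.4 and 46.0% in NASH, and one 127 kb from Mylip, which marks the LDL receptor for degradation, at 14.9 to 28.6% and 32.4 to 44.7%. Bile acid and sterol transport genes had 6, with 4 higher and 0 lower, among them one inside Abcg8 (a subunit of the sterol exporter) at 16.1 to 22.4% and 29.9 to 33.4%, and one inside Abcb4 (the phospholipid exporter of bile) at 32.2 to 37.6% and 38.2 to 47.9%.

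Lipogenesis and lipid droplet genes had 13 low windows with a median of 2.02 points, 4 higher and 3 lower. The 9 that were low also without zeros had a median of 10.07 points, 4 higher and 2 lower. Cd36, a fatty acid uptake receptor, had windows in both directions: one 35.04 kb away, at chr5:17924000-17924999, was at 13.9, 13.4, 17.2 and 9.70% in ND and 25.2, 19.7, 20.9 and 28.8% in NASH. The other lay inside the gene, at chr5:17843000-17843999, with 43.1, 36.4, 42.4 and 42.0% in ND and 35.9, 26.7, 28.4 and 20.8% in NASH. Near Scd1, the stearoyl-CoA desaturase, one 8.29 kb away was at 9.49 to 20.5% and 21.1 to 30.3%.

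Fatty acid oxidation and ketogenesis genes had 13, with 5 higher and 0 lower. One inside Ppargc1a, a coactivator of mitochondrial and gluconeogenic genes, was at 22.2 to 29.2% in ND and 34.96 to 43.3% in NASH, and one inside Bdh1, the ketone body dehydrogenase, at 19.04 to 31.8% and 43.6 to 51.6%. Glucose, fructose and insulin genes had 19 with a median of 11.6 points, 12 higher and 0 lower. One inside Slc2a2, the hepatocyte glucose transporter GLUT2, was at 23.1, 22.3, 20.2 and 18.7% in ND and 38.3, 36.1, 38.6 and 48.3% in NASH, and one inside Irs1, the insulin receptor substrate, at 20.05 to 22.7% and 32.3 to 38.5%.

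Growth hormone and sex-biased genes had 12 with a median of 12.1 points, 7 higher and 0 lower. One inside Ghr, the growth hormone receptor, was at 10.9 to 23.7% in ND and 30.4 to 36.7% in NASH, and one inside Igf1, the secreted growth factor it induces, at 11.7 to 19.5% and 22.9 to 37.7%. Xenobiotic metabolism genes had 8, with 5 higher and 0 lower, including one inside Ephx1 (an epoxide hydrolase) at 25.5 to 28.9% and 41.04 to 51.3%, and one inside Aox1 (aldehyde oxidase) at 17.3 to 23.7% and 31.7 to 42.6%. Circadian clock genes had 8, with 4 higher and 0 lower, among them windows inside Npas2 (15.1 to 26.9% and 30.1 to 39.9%) and Cry1 (20.1 to 28.0% and 29.1 to 38.5%).

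AP-1, stress and growth control genes had 27 with a median of 7.81 points, 10 higher and 2 lower. Gadd45g, a stress-induced growth arrest gene, had one 48.5 kb away at 22.6 to 33.3% in ND and 42.3 to 54.0% in NASH, and Klf6, an immediate early zinc finger factor, one 319 kb away at 28.5 to 33.6% and 40.7 to 44.9%. Inflammation genes had 10, with 5 higher and 0 lower. One inside Stat3, the factor downstream of IL-6, was at 26.1 to 34.9% and 43.1 to 54.9%, and one 37.0 kb from Nfkb1 at 24.8 to 26.7% and 31.1 to 42.0%.

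Markers of other liver cells were mixed, with a median under 4.20 points in 4 of 6 lists. Macrophage and Kupffer cell markers had 4 low windows with a median of 1.01 points and 0 in either direction. One 17.1 kb from C1qb, a complement gene of macrophages, was at 20.5, 21.6, 18.5 and 19.1% in ND and 16.3, 38.2, 19.6 and 22.6% in NASH, so that 1 NASH library set its mean difference of 4.23 points, which was -0.43 without that library. Endothelial markers had 16 with a median of 0.72 points, 4 higher and 1 lower, the latter 106 kb from Kdr (a VEGF receptor) at 39.6, 37.8, 42.8 and 42.3% in ND and 33.6, 26.8, 29.0 and 26.1% in NASH. Near Sox17 one was at 19.6 to 31.6% and 34.5 to 44.9%.

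Lymphocyte markers had 11 with a median of -1.36 points, 3 higher and 1 lower, but the 6 low also without zeros had a median of 2.78 points, 3 higher and 0 lower. A pair inside Bach2, a B cell repressor also known from T cells, was at 22.3 to 27.5 and 20.9 to 28.4% in ND and 37.9 to 44.4 and 30.9 to 46.7% in NASH. Cholangiocyte markers had 8 with a median of 2.75 points, 1 higher and 2 lower, with windows near Sox9 (31.03 to 42.0% in ND, 25.01 to 33.8% in NASH) and Spp1 (22.0 to 26.4 and 26.4 to 47.0%). Stellate cell and matrix markers had 10 with a median of 6.51 points, 5 higher and 0 lower, among them windows inside Col6a3 (21.5 to 30.2 and 35.2 to 43.9%) and Reln (22.3 to 28.9 and 33.8 to 34.8%). The only neutrophil marker with low windows was Csf3r, the G-CSF receptor, with one 81.4 kb away at 17.8 to 24.4 and 36.9 to 44.8% and one 32.4 kb away at 19.5 to 36.5 and 20.7 to 26.1%. The lists are small and share neighbours, and a difference between lists was not tested.

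**Figure D5:**
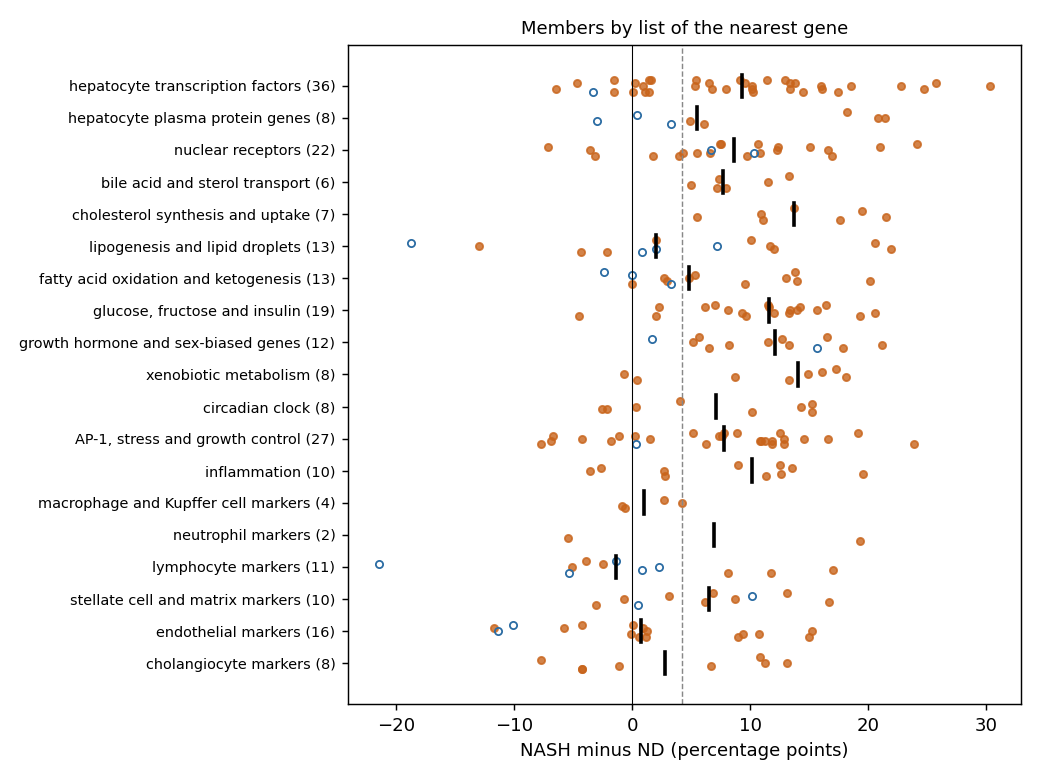
Difference NASH minus ND in percentage points of each low window (points), by the list of its nearest gene with the number of windows in brackets; filled points are low also without zeros, open ones above 60% without zeros, thick bars are medians and the dashed line is the median of all low windows (4.20). Medians run from -1.36 for lymphocyte markers (2.78 over the filled points) to 14.1 for xenobiotic metabolism. The median of all windows low also without zeros is 5.70.

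Some genes had many low windows. Their counts are to be read beside 34.2% higher and 3.73% lower over all low windows at an unadjusted limma p under 0.05. Tbl1xr1, a subunit of the NCoR corepressor complex, was nearest to 12, of which 7 were low also without zeros and 4 were higher at an unadjusted p under 0.05. Celf4, an RNA-binding protein gene, had 11 (3 higher, 0 lower), and Zfp608 had 10 (5 higher, 1 lower). Of the genes with 9, the first 3 by alphabet were Foxa2, Ppargc1a and Rad51b. Foxa2, a pioneer factor of liver, had 9 between genes, 21.9 to 239 kb away, with differences from -6.46 to 14.4 points, 5 higher and 0 lower. Ppargc1a had 3 higher and 0 lower, with a median of 3.27 points. All 9 of Rad51b, a recombination gene, lay inside it, with a mean of 24.5, 27.2, 24.6 and 25.4% in ND and 36.1, 34.3, 32.7 and 32.7% in NASH, 6 higher and 1 lower.

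Most low windows stood alone. With a gap of up to 10 kb, 853 fell into runs of 2 or more, of which 379 were pairs, 29 were runs of 3 and 2 were runs of 4. One run of 4 lay at chr14:63205000-63212999 by Gata4, a factor of liver and endothelial development, with a mean of 24.3, 20.3, 25.5 and 28.3% in ND and 32.6, 27.3, 34.0 and 38.5% in NASH, so that the groups overlapped. The other lay at chr17:79991000-80008999 by Hnrnpll, a splicing factor, with 34.1, 27.7, 36.8 and 32.1% in ND and 45.1, 36.9, 41.3 and 47.8% in NASH, where they did not. In each run 3 of 4 windows were higher at an unadjusted limma p under 0.05, beside 34.2% of all low windows. Runs of 3 were tied for the next place, so none is named.

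At the edges of the rule, the members just inside 10% were near Utp6 (10.0% in both groups) and inside Pde4b (6.17% in ND, 13.8% in NASH), and the windows just outside near Slc35f5 (7.11 and 12.8%) and Prkd1 (10.3 and 9.56%). Just inside 40% were windows near S1pr1 (42.6 and 37.4%) and Chil1 (35.4 and 44.6%), and just outside near Hsd3b5 (37.9 and 42.1%) and Acvr1c (42.9 and 37.1%). The 3 members that varied most among ND libraries were inside Camk4 (8.33 to 83.3%), near Lratd1 (5 to 80%) and near Frs3 (7.46 to 76.5%). All 3 were above 60% without zeros.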

How the data were processed

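The authors deposited 1 table with the percent methylation of every listed cytosine of a CpG, each strand on its own row, in 8 libraries. The submitters' processing notes name mm10; which aligner and caller made the levels is not given in the sources used here. All 8 columns were mapped to libraries by name, the ND columns to the WT titles. A total of 30729668 positions on 15 chromosomes was used. Positions on 85 contigs and 1 incomplete line were left out, and the other chromosomes were not analysed here. All 256194 CpGs of the RefSeq start sequences were listed, at coordinates that ran 1 above the 1-based GRCm38.p6 position.

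Levels were averaged over the positions of a window, each with the same weight and zeros included. Windows with at least 6 positions were fitted with limma 3.58.1 (mean-dependent prior variance, R 4.3.3), with Benjamini-Hochberg adjustment over all 1609820; a window was called at an adjusted p under 0.05. The script was tested on simulated data. Read counts being unavailable, no model of reads was run. Other work used Python 3.11.15, numpy 2.4.6 and pandas 2.3.3. Gene positions were those of RefSeq for GRCm38.p6, and marker gene ends ran from 1000 bases outside to 500 inside.

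The rule named the 12 called windows with the largest difference each way without overlap, the called window of smallest p each way, 2 windows per list by smallest p, the 6 nearest genes with most members, 2 windows either side of each level threshold, the 3 longest runs and the 3 members most variable in ND. As none was called, uncalled windows took the first places. Members, lists and rules were chosen with earlier results of these data known. Alternatives were the handling of zeros, a logit scale, the prior variance, the minimum of positions, a replicate block, each library left out, and stricter rules; the split by the level without zeros was added after seeing the data. A few windows that the rule names are not reported here.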

Additional observations from a re-analysis of the deposited data

Results flagged for a closer look

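Of 158 groups of 4 libraries examined (the means over the low windows and each named window), 9 had 1 library farther from the rest than Dixon's 95% limit allows, which chance gives in about 1 of 20 groups. None was a mean over the low windows. In ND the libraries that stood apart were at 66.7% in the window near Prkcq, 59.3% near Pabpc4l, 60.5% near Zfp36l1, 36.4% in the window inside Cd36, 44.9% near Id3 and 24.1% in the window of Rptoros. In NASH they were at 30.4% in the window inside Ghr, 42.3% near Gadd45g and 35.2% inside Col6a3. The windows near Prkcq and Pabpc4l are among those above 60% without zeros.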

How the results depend on the processing

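With limma, 0 low windows were called in either direction, against 2227 higher and 243 lower at an unadjusted p under 0.05. Over all 1609820 tested windows, 69702 were higher and 105944 lower at that p. Calls stayed at 0 on a logit scale, with 1 prior variance, and with at least 10 or at least 1 position. They also stayed at 0 without doubtful zeros (a 0 whose 10 nearest positions have a median of 50% or more) and with a replicate block. With the block, 2263 were higher and 257 lower at an unadjusted p under 0.05, against 64745 and 98618 of all 1609820. With every zero left out, 6 of 6087 low windows still tested were called higher, against 164 higher and 144 lower of all 1569143 (the 6 were in Dennd1b, Scp2, Fermt2, Spice1 and Sh3pxd2a and near Mbnl1). There 1318 were higher and 285 lower at an unadjusted p under 0.05, against 50549 and 115343 of all. The mean difference over the low windows was 2.63 points. Leaving out 1 library gave 0 to 1 call; the 1 came without ND replicate 2, in Ppp1r36 (adjusted p = 0.0465). It gave mean differences of 4.59 to 5.20 points and 2010 to 2208 higher, against 59159 to 70627 higher of all 1609820. In the same fits 202 to 277 were lower, against 87313 to 121434 lower of all. Leaving out windows above 50, 60 or 70% without zeros gave 7.34, 6.25 and 5.89 points. A mean of 15 to 35% left 3815 windows (4.93 points), and adjoining windows above 70% left 3843 (5.42 points). Of 1139 refits of 76 named windows, 1137 kept the direction. Most windows were named for a small p or groups that do not overlap, and some settings leave the estimate unchanged. The count was thus largely fixed by the choice and is no measure of robustness. C1qb (4.23 points) was at -0.92 points without zeros and at -0.43 to 6.86 with 1 library left out, the lowest without NASH replicate 2. Same-numbered libraries did not deviate together (correlations of -0.00532, 0.00419, 0.02 and -0.00102), and differently numbered ones ranged from -0.0272 to 0.0268. These correlations cannot exclude that the numbers pair samples. The depth is unknown.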

Other observations

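Other genes with 7 or 8 low windows, chosen after their values were seen, are given as values. Over all low windows 71.5% had a positive difference. At an unadjusted limma p under 0.05, 34.2% were higher and 3.73% lower. Fndc3b had 8, all higher in NASH by 3.14 to 15.4 points, with 5 at an unadjusted limma p under 0.05. Foxn3, a forkhead repressor gene, had 7, all inside it and higher by 3.82 to 21 points, with means of 20.3 to 28.1% in ND and 31.01 to 39.8% in NASH. Myc, the growth-promoting transcription factor, had 8 between genes, higher by 0.26 to 14.6 points, 3 of them at that p. Zbtb20, a repressor of alpha-fetoprotein in liver, had 7 with a median of 11.4 points and means of 23.5 to 26.1% in ND and 33.4 to 39.5% in NASH. Rbfox3, a neuronal splicing factor gene, had 7 with a median of -1.30 points, 0 higher and 1 lower at that p. Prkd1 had 7 with a median of 0.79 points, 0 higher and 1 lower.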
